A study of Mus musculus with 12 samples.

Results

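Open chromatin was described around 10 genes that mark macrophages and dendritic cells, namely Irf8, Irf4, Csf1r, Itgam, Itgax, Lyz2, Ciita, Cd74, H2-Aa and Siglech. They are 10 of 21755 protein-coding genes on the autosomes and X chromosome, and they were chosen by name. Around each gene the window ran from 50 kb before to 50 kb after the gene body in GENCODE release M21 (mm10). DNase I hypersensitive sites (DHSs) are places where the enzyme DNase I cuts nuclear DNA readily, and each library is a list of such places called as peaks of 150 bp. Peaks of the 12 libraries that shared 1 bp or more were merged, which gave 170207 consensus DHSs, of which 228 lay in the 10 windows. Of these 228, 13 had a peak midpoint within 1 kb of the start of the listed gene (its promoter), 21 lay at the promoter of another gene and 194 were distal. Itgam and Itgax are neighbours on chromosome 7, and 16 DHSs lay in both of their windows. A total of 162 window DHSs were found in at least 2 libraries and could be tested. The other 66 were found in 1 library, 30 of them in DN2b replicate 2 alone, and 23 of the 228 were found in all 12 libraries. Over all 170207 DHSs, 55680 were found in 1 library and 13068 in all 12.

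All cells came from the bone marrow of C57BL/6J mice. Freshly sorted LSK cells (lineage-depleted, high in SCA1 and KIT), which are stem and progenitor cells, gave 3 libraries. LSK cells cultured on immobilised Delta1ext-IgG, a Notch ligand fused to an antibody fragment, with SCF, FLT-3 ligand, IL-6 and IL-11 gave 2 libraries of sorted DN1 cells (KIT++CD44+CD25-). The same cultures with IL-7 added gave 2 libraries each of DN2a (KIT++CD44+CD25+) and DN2b (KIT+CD44loCD25+) cells, so IL-7 and stage cannot be told apart between DN1 and DN2, and 4 of the 6 libraries compared with IgG came from cultures given IL-7. LSK cells cultured on human IgG1 without the ligand in medium with the same 4 factors gave 3 IgG libraries, and no sort of these cells by surface marker is stated in the sources used here. The 6 DN1, DN2a and DN2b libraries are called Delta1 libraries below. The methods speak of independent LSK isolates, but the labels do not say which libraries share one, so p-values measure the spread between these libraries, which may in part be technical. Age and sex of the mice are not given in the sources used here.

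Macrophages and dendritic cells are phagocytes that arise from marrow progenitors through a shared precursor, and dendritic cells can also arise from lymphoid progenitors and from early thymic precursors. The transcription factors IRF8 and IRF4 direct the choice between these fates, the receptor CSF1R carries the survival signal of macrophages, and integrins of the beta-2 family serve adhesion and uptake. Antigen presentation to helper T cells rests on MHC class II molecules, whose genes are switched on by CIITA and whose peptide groove is guarded by CD74. Notch signalling turns marrow progenitors towards the T cell lineage and away from B and myeloid cells, and most of these myeloid genes are silent in T cells.

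Values are percentiles of the peak score within a library, so that 90 means that a peak scored above about 90% of the peaks in its own list, and 0 means that no peak was called. List length stands in for depth, which is unknown. The lists held from 53869 to 62377 peaks in LSK, 69391 and 96436 in DN1, 57729 and 68478 in DN2a, 61484 and 111582 in DN2b, and 32952 to 37511 in IgG. A weak site is missed more readily in a short list, and a strong site ranks lower in it, so every test was run both on the deposited lists and on the 32952 highest-scoring peaks of each library (equal lengths). A site, promoter or locus was called at an adjusted p under 0.05, from limma with Benjamini-Hochberg adjustment over all sites, promoters or loci tested. Each difference is given in percentile points with its standard error. A DHS or promoter with peaks in 1 group alone passed the filter of 2 libraries only through that group, so its test in part restates that pattern. Since the cells were measured in bulk, a change in the share of cells of a type and a change in accessibility per cell cannot be told apart.

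The libraries were first compared at the promoters of 10 T cell genes. In IgG 0 of these promoters were open in each library, against 1 or 2 in LSK, 4 and 4 in DN1, 7 and 7 in DN2a, and 8 and 9 in DN2b. Of the 10 listed genes of macrophages and dendritic cells, 7, 7 and 6 had an open promoter in LSK, 8 and 8 in DN1, 7 and 8 in DN2a, 8 and 8 in DN2b, and 6, 6 and 5 in IgG. At equal lengths these counts were 5, 6 and 5 in LSK, 6 and 7 in DN1, 6 and 6 in DN2a, 3 and 3 in DN2b, and 6, 6 and 5 in IgG. The deposited lists thus gave similar counts with Notch and in LSK, and DN2b had the fewest at equal lengths. The number of window DHSs with a peak ran from 70 to 77 in LSK, 80 to 150 in Delta1 libraries and 58 to 65 in IgG, and from 51 to 61 in any library at equal lengths. As a percent of all DHSs with a peak in the same deposited list, window DHSs made up 0.178, 0.181 and 0.164 in IgG. Elsewhere they made up 0.127 to 0.156.

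**Figure D1:**
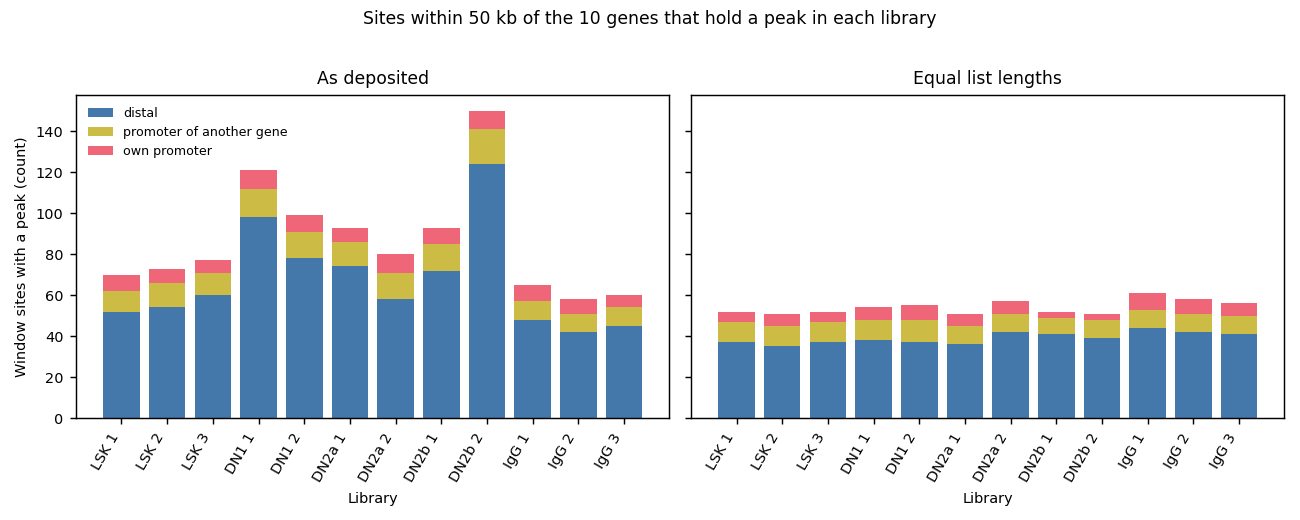
Number of window DHSs (y axis, count) with a peak in each of the 12 libraries (x axis), on the lists as deposited (left) and at equal list lengths (right), stacked by position. DN2b replicate 2 has 150 as deposited and 51 at equal lengths, and the 3 IgG libraries move from the lowest counts (58 to 65) to 56, 58 and 61.

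In the comparison of culture without the ligand (IgG) and with it (Delta1), 19 of the 162 tested window DHSs were higher in IgG and 76 were lower. Over all 114527 DHSs tested, 7.77% were higher and 38.4% lower. At equal lengths 29 of 101 were higher and 29 lower, where 21.9% and 25.3% of 59234 DHSs were. All 19 of the higher calls and 29 of the 76 lower calls were also made at equal lengths, and no call changed direction. Against LSK, 14 window DHSs were higher in IgG and 31 lower (4.86% and 17% of all), and 19 and 15 at equal lengths (12.9% and 15.6% of all). DN1 was higher than LSK at 30 and lower at 6 (13.8% and 2.29% of all), and higher at 14 and lower at 13 at equal lengths (8.71% and 6.88%). DN2 was higher than DN1 at 20 and lower at 22 (5.58% and 9.41% of all), and at 10 and 14 at equal lengths (8.73% and 7.71%). Single libraries weighed on these counts as deposited. Without DN1 replicate 1, DN1 was higher than LSK at 16 and lower at 3, and DN2 was lower than DN1 at 9. Without DN2b replicate 2, DN2 was higher than DN1 at 12. The median difference over the tested window DHSs was -13.7 points in IgG against Delta1 and -3.7 in DN2 against DN1, beside -13.8 and -0.637 over all DHSs, and at equal lengths it was -0.712 and 0, beside -1.79 and 0. The split between higher and lower calls thus moved with list length in the first 3 of these comparisons.

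Promoters of several neutrophil genes were higher in the IgG group. Of 10 neutrophil markers, 6, 4 and 7 had an open promoter in the IgG libraries, 1, 2 and 3 in LSK, and 1 or 2 in each Delta1 library. S100a8, an abundant calcium-binding protein of neutrophils and monocytes, stood at percentiles 93.5, 97.7 and 69.3 in IgG and had no promoter peak in any other library. Camp, a granule peptide, stood at 97.7, 91.8 and 73.6 in IgG, and Elane and Mpo, which define granule-forming precursors, were open in IgG replicate 3 alone, at 66.9 and 77.2. Ly6g was open in none of the 12 libraries. Csf3r, Ngp and S100a9 were also called higher in IgG than in Delta1 libraries, which makes 5 of 7 tested, where 2.86% of all promoters were called higher, and the same 5 were called at equal lengths. S100a8, S100a9 and Ngp had promoter peaks in IgG alone and passed the filter of 2 libraries only through that group. The count of 7 tested thus depends in part on the IgG values, and the share called in part restates them. The other 2 tested gave negative differences that were not called, -23.3 ± 11.2 points for Ltf (adjusted p 0.0962) and -16.3 ± 11.1 points for Prtn3 (adjusted p 0.228). Ltf had a peak in all 3 LSK, 5 of 6 Delta1 and 1 of 3 IgG libraries, and Prtn3 in 2 Delta1 libraries alone. Their part in the IgG results that follow was not tested. Other marker lists gave few open promoters in IgG. Open promoters of mast cell and basophil genes numbered 0, 0 and 2 of 10 in IgG and 1 to 4 elsewhere, those of B cell genes 1, 1 and 2 of 10 and 2 to 5 elsewhere, those of erythroid and megakaryocyte genes 2, 2 and 1 of 9 and 3 to 8 elsewhere, and those of stem and progenitor genes 4, 2 and 4 of 10 and 4 to 6 elsewhere. At equal lengths the counts in IgG lay within or next to those elsewhere, at 0, 0 and 1 against 0 to 2 for mast cells and basophils, 1, 1 and 2 against 1 to 3 for B cells, 2, 2 and 1 against 0 to 7 for erythroid cells and megakaryocytes, and 4, 2 and 4 against 3 to 5 for progenitors. Over all genes 8903 to 9588 promoters were open in IgG and 10497 to 12422 elsewhere as deposited.

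**Figure D2:**
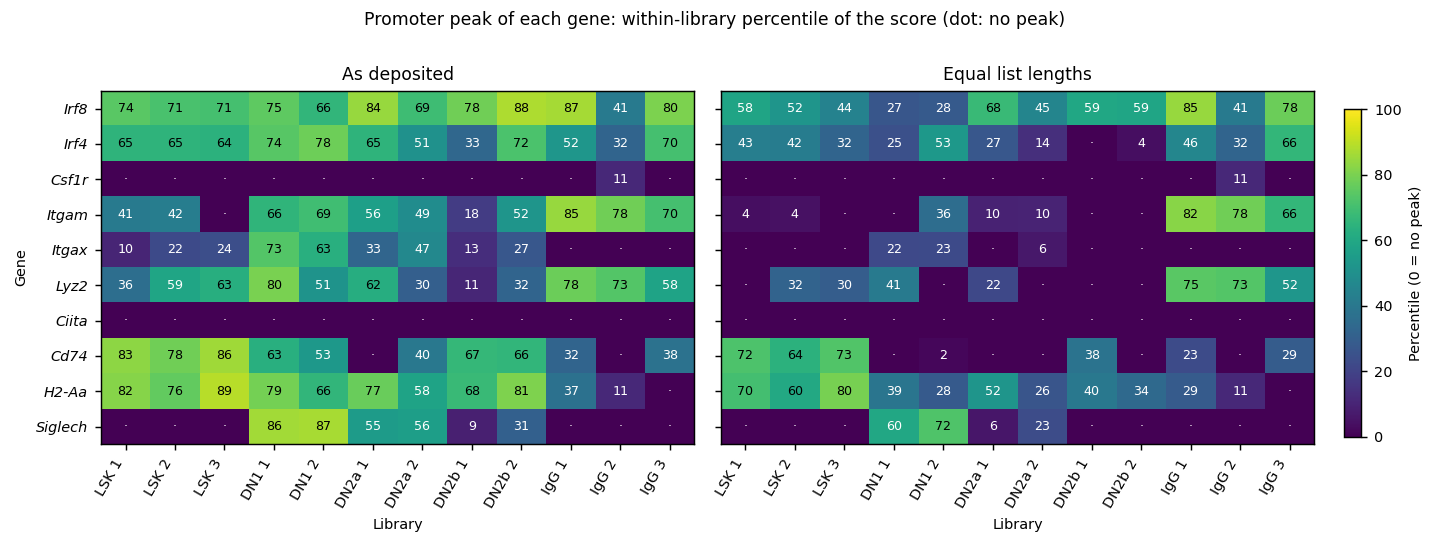
Within-library percentile of the best peak within 1 kb of the start of each listed gene (rows) in each library (columns), as deposited and at equal list lengths, where an empty cell is a promoter with no peak. Siglech is filled in the 6 Delta1 libraries alone as deposited, Itgax in all libraries but IgG, and Ciita in none.

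Of the 8 listed promoters with a peak in at least 2 libraries, 0 were called higher and 3 lower (Siglech, Itgax and H2-Aa) in IgG than in Delta1 libraries, where 59.2% of all promoters were called in either direction (2.86% higher and 56.3% lower). Without DN2a replicate 1 the called promoters numbered 5. On the deposited lists Itgam was called higher in IgG without LSK replicate 3 (adjusted p 0.025) or DN2b replicate 2 (adjusted p 0.0275). Lyz2 was called higher in IgG without DN1 replicate 1 (adjusted p 0.0392) or DN2a replicate 1 (adjusted p 0.0335). At equal lengths 3 were higher (Itgam, Lyz2 and Irf4) and 1 lower (Siglech), with 35.1% of all called (13.1% higher and 22% lower). Against LSK, Itgam was higher in IgG while H2-Aa and Cd74 were lower (43.5% of all called), and Lyz2 joined the higher calls at equal lengths (24.8% of all). Between DN1 and LSK the called promoters were Siglech and Itgax, both higher in DN1 (3.7% of all called). Cd74 was lower there at equal lengths (6.82% of all). The same pair, Siglech and Itgax, was lower in DN2 than in DN1 with both list lengths, where 1.86% and 2.3% of all promoters were called (lower 1.12% with either length, higher 0.746% and 1.18%). The median over the 8 promoters in DN2 against DN1 was -22.3 points, beside -0.925 over all promoters. Csf1r and Ciita could not be tested at this window.

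IRF8 is the transcription factor that monocytes and several dendritic cell types require. The gene lies on chromosome 8 (chr8:120736358-120756694, plus strand), and its window held 30 DHSs. Its promoter was open in all 12 libraries, at percentiles 74.5, 71.1 and 70.6 in LSK, 75 and 65.9 in DN1, 84.5 and 68.9 in DN2a, 78.3 and 87.8 in DN2b, and 86.6, 40.9 and 80.3 in IgG. These groups overlap and no comparison called the promoter. Among the DHSs that were called, 3 upstream within about 4 kb of each other had peaks in different groups on the deposited lists. The first, 38.5 kb before the start, was open in the 3 IgG libraries alone, at 74.3, 65.4 and 92.4, which is 77.4 ± 6.18 points above Delta1 (adjusted p 1.21e-05, and 2.84e-06 at equal lengths). The second, 36.6 kb before the start, was open in the 4 DN2 libraries alone, at 77, 80.7, 86.9 and 94, and was 84.7 ± 5.48 points higher in DN2 than in DN1 (adjusted p 1.77e-05, and 2.17e-05 at equal lengths). The third, 34.4 kb before the start, was open as deposited in the 6 Delta1 libraries alone, at 45.4 and 45.2 in DN1, 71.6 and 66.5 in DN2a, and 84.7 and 93 in DN2b. At equal lengths it had no peak in DN1. It was then open in the same 4 DN2 libraries as the second, at 41, 41.4, 71.5 and 76.5. It was lower in IgG than in Delta1 by 67.8 ± 4.39 points (difference -67.8, adjusted p 3.42e-06, and 5.51e-06 at equal lengths) and 33.7 ± 5.38 points higher in DN2 than in DN1 (adjusted p 0.00244, and 1.48e-05 at equal lengths). When peaks within 150 bp were merged, it joined a neighbour open in several groups and the IgG difference was no longer called (-23 points, adjusted p 0.142).

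Sequences of these 3 neighbouring DHSs are labelled by the groups open on the deposited lists. At equal lengths those 36.6 and 34.4 kb upstream were both open in the 4 DN2 libraries alone. The sequences are shown because, on the deposited lists, the sites were open in different groups near a promoter open in all 12 libraries. They are read from the plus strand of the RefSeq GRCm38.p6 genome, the assembly behind mm10, and capitals mark a C/EBP motif (TTGCNNAA) in the first and an AP-1 motif (TGANTCA) in the third, while the second held none of the motifs searched.
Irf8 38.5 kb upstream, open in IgG, chr8:120697757-120697926: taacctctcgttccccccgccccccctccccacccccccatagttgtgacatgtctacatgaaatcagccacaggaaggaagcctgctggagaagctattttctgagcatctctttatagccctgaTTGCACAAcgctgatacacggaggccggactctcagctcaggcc
Irf8 36.6 kb upstream, open in DN2, chr8:120699637-120699806: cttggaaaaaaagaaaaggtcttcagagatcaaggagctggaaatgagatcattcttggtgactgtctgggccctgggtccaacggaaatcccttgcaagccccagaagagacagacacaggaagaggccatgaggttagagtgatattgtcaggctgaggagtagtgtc
Irf8 34.4 kb upstream, open in Delta1 libraries, chr8:120701837-120702026: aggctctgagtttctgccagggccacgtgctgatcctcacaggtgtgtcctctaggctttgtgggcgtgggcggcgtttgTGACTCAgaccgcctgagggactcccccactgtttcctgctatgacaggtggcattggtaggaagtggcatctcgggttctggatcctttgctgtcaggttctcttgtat
Among all distal DHSs, 14.8% held the C/EBP letters and 13.4% the AP-1 letters in the 300 bases around the centre, so a match describes the sequence and identifies no bound factor.

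Further Irf8 DHSs were open in other combinations of libraries. The distal DHS with the highest median in the window, 60.1 kb downstream of the start, was open in all 12 libraries, with IgG at 34.9, 54.9 and 54.6 below the other 9 libraries as deposited (-22.1 ± 6.52 points against Delta1, adjusted p 0.022), a difference that was not called at equal lengths (10.5 points, adjusted p 0.419). A DHS in an Irf8 intron, 15.9 kb downstream, was open at 50.8, 25.6 and 56.4 in LSK, absent from DN1 and IgG, and open at 32.6, 40.5 and 45.6 in 3 of the 4 DN2 libraries. It was 44.3 ± 11.4 points lower in DN1 than in LSK (difference -44.3, adjusted p 0.0276, and 0.154 at equal lengths), and this call was lost without LSK replicate 1 or 3 or either DN1 library (adjusted p 0.0758 to 0.134). A DHS 56.5 kb downstream was highest in IgG, at 62.8, 38.2 and 78, against 15.3, 31.6 and 32.1 in LSK and a peak in 1 of 6 Delta1 libraries, at 16.9 (56.8 ± 9.02 points against Delta1, adjusted p 0.000881, and 8.2e-05 at equal lengths). A DHS 27.1 kb downstream was lower in IgG than in Delta1 as deposited (-41 ± 7.08 points, adjusted p 0.00143) but not at equal lengths (0.658 points, adjusted p 0.994). These 2 sites, and sites 20.9, 11 and 10.1 kb upstream, were chosen after their values were seen. The upstream 3 rose from DN1 to DN2 as deposited (adjusted p 0.0403, 0.00184 and 0.00413). At equal lengths the first was called (adjusted p 0.000399), the second was left in 1 library and could not be tested, and the third was not called (adjusted p 0.0834). At the site 20.9 kb upstream DN1 stood at 41.7 and 25, DN2a at 69.6 and 76.8, and DN2b at 69.9 and 83.8, with none in IgG and 39.6 in 1 LSK library. In all, 6 of the 17 Irf8 DHSs tested were higher in DN2 than in DN1 and 0 lower (5.58% and 9.41% of all DHSs), and at equal lengths 3 were higher and 0 lower (8.73% and 7.71% of all).

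IRF4 is required for another group of dendritic cells and acts later in B and T cell activation. The gene lies at chr13:30749226-30766976 (plus strand) with 19 window DHSs. Its promoter stood at 65, 65 and 64.3 in LSK, 74.2 and 77.8 in DN1, 64.9 and 50.6 in DN2a, 33.3 and 71.6 in DN2b, and 52.4, 32.4 and 70.5 in IgG. Both DN1 libraries lay above the other 10, which overlapped, and no difference was called as deposited. At equal lengths the promoter was 27.9 points higher in IgG than in Delta1 (adjusted p 0.026), whereas the deposited lists gave -10.3 ± 10.1, so its direction depends on list length. Distal sites set the Delta1 libraries apart. A DHS 64.4 kb downstream of the start stood at 80.9 and 74.6 in DN1, 73.6 and 67.7 in DN2a, and 68.9 and 84.6 in DN2b, against 27.3, 0 and 44.3 in LSK and none in IgG (-75.1 ± 8.77 points in IgG against Delta1, adjusted p 0.000139, and 3.42e-06 at equal lengths). It was also 53.9 ± 11.3 points higher in DN1 than in LSK (adjusted p 0.0102, 8.58e-05 at equal lengths, and 0.0832 without DN1 replicate 1). Less than 1 kb further on, 65.3 kb downstream and in a UTR of Exoc2, IgG stood at 72.6, 40.9 and 74.5 with LSK at 0. The difference was 62.6 ± 10.8 points (adjusted p 0.0025, and 0.000131 at equal lengths). In the upper 50% of each list by score it was 31.4 points and not called (adjusted p 0.0657). At this site 1 of 2 DN1 and both DN2b libraries also had a peak. The distal DHS with the highest median, 37.1 kb downstream, was open in 11 libraries and stood at 15, 0 and 42.4 in IgG against 62, 67.6 and 82.3 in LSK (-51.5 ± 11 points, adjusted p 0.00808, and 0.024 at equal lengths). A DHS 17.8 kb downstream was open in all libraries but IgG, at 21.2, 42.2 and 39.6 in LSK and 63.1 to 81.5 in Delta1. A DHS 10.7 kb upstream stood at 47.2 and 58.6 in DN1 and fell in DN2 (-44.5 ± 9.24 points, adjusted p 0.0101, 0.348 at equal lengths, and 0.0718 without DN1 replicate 2).

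The Irf4 window also held 6 of the 9 window DHSs with a peak in DN2b replicates 1 and 2 and nowhere else. The largest in this window, 47.4 kb upstream in an intron of Dusp22, stood at 60.5 and 82, and 1 in a coding exon of Irf4, 12.2 kb downstream of the start, at 52.6 and 79.6. Over all 170207 DHSs 1.86% had this pattern, and over the 228 window DHSs 3.95%. DN2b replicate 2 has the longest list. At equal lengths 2 of these 6 DHSs still had peaks in both DN2b libraries alone, and the other 4 had no peak in any library. The percent of Irf4 window DHSs that were open was 68.4 and 84.2 in DN2b, against 26.3 to 47.4 in DN1, 31.6 in each DN2a library, 15.8 to 31.6 in LSK and 10.5 to 21.1 in IgG. The locus was called lower in IgG than in Delta1 (-30.7 ± 8.43 percentage points, adjusted p 0.00242, and 0.0082 at equal lengths).

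CSF1R is the receptor for colony stimulating factor 1, on which macrophages depend. The gene lies on chromosome 18, from 61100598 to 61132149 (plus strand), with 31 window DHSs. Near the start of the gene record the chromatin was closed, with 1 weak peak (percentile 11.4) in IgG replicate 2 alone. Transcripts in macrophages start further into the record, and there, 5.17 kb downstream, a DHS was open at 29.4 and 30.5 in DN1 and at 39.9, 50.5 and 58.2 in IgG, and was absent from LSK and DN2. It was 49.5 ± 5.78 points higher in IgG than in LSK (adjusted p 0.000246, and 0.000108 at equal lengths). The gene is known to carry a strong intronic enhancer. The gene-body DHS with the highest median lay 8.08 kb downstream, in an intron, and whether it is that element was not tested. It stood at 85.3, 87.3 and 87.3 in LSK, 83.6 and 64.6 in DN1, 0 in all 4 DN2 libraries, and 62.8, 58.8 and 77.2 in IgG. DN2 was 74.1 ± 6.73 points below DN1 (difference -74.1, adjusted p 0.000101, and 0.00735 at equal lengths). The intronic site was thus open in progenitors, in DN1 and without Notch, and had no peak in any DN2 library.

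Sites before the Csf1r start behaved otherwise. A DHS 9.33 kb upstream stood at 89.8 and 91.1 in DN1, 92 and 82.7 in DN2a, and 81 and 88.9 in DN2b, with 27.3 in 1 LSK library and none in IgG. DN1 exceeded LSK by 81.4 ± 8.49 points (adjusted p 0.00018, and 3.3e-05 at equal lengths) and IgG was below Delta1 (-87.6 ± 6.58 points, adjusted p 8.18e-06, and 1.34e-06 at equal lengths). In the opposite direction, a DHS 25.8 kb upstream, in an intron of Pdgfrb, the neighbouring receptor gene, was open in IgG alone, at 71.6, 70.8 and 81.9 (74.8 ± 4.59 points, adjusted p 2.51e-06, and 2.37e-07 at equal lengths). A DHS 43.1 kb upstream was open in the 4 DN2 libraries alone, at 27.9, 63.9, 40.5 and 61.3 (48.4 ± 9.68 points above DN1, adjusted p 0.00833, and 0.0649 or 0.0528 without DN1 replicate 1 or 2), and at equal lengths it was found in 1 library and could not be tested. Far downstream, at 54.6 kb in an intron of Hmgxb3, LSK stood at 91.8, 77.7 and 91.7, DN1 at 90.1 and 81.3, DN2 at 44.9 to 70 and IgG at 0. The IgG libraries fell below LSK there by 87.1 ± 5.79 points (difference -87.1, adjusted p 9.86e-06, and 4.05e-05 at equal lengths). As a whole the locus was not called as deposited (-10.8 percentage points in IgG against Delta1, adjusted p 0.239) and was 15 points higher in IgG at equal lengths (adjusted p 0.0283), whereas a flank of 100 kb on the deposited lists gave a call in the other direction (-19.2 points, adjusted p 0.0239).

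**Figure D3:**
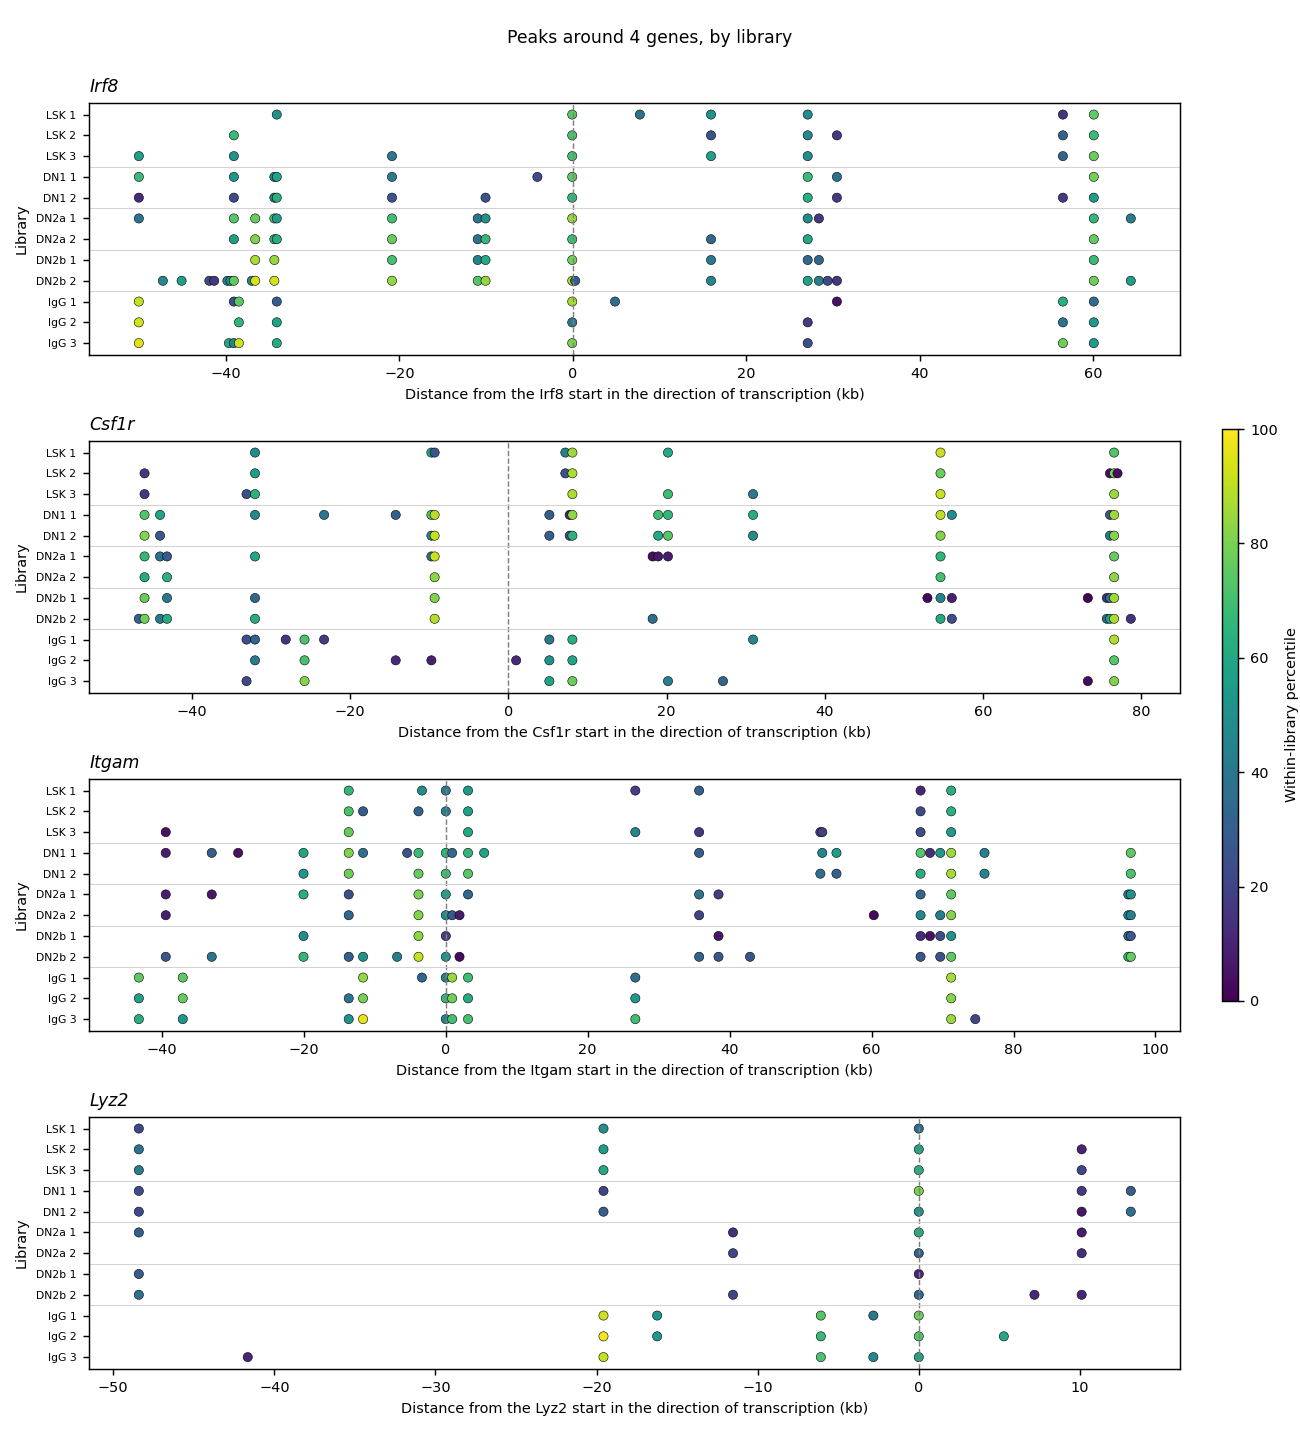
Peaks around Irf8, Csf1r, Itgam and Lyz2 in each library (1 line per library), by distance from the gene start in the direction of transcription (x axis, kb) and coloured by within-library percentile. On the deposited lists the Irf8 column 38.5 kb upstream is present in the 3 IgG libraries alone. As deposited, the Irf8 column 34.4 kb upstream is present in the 6 Delta1 libraries alone. The Lyz2 column 6.08 kb upstream is present in IgG alone.

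ITGAM (CD11b) is the integrin alpha chain of macrophages, monocytes and neutrophils. The gene lies at chr7:128062640-128118491 (plus strand), with 33 window DHSs, and 2 of these lie within 1 kb of the start. The DHS on the start itself stood at 41.2, 42.2 and 0 in LSK, 65.5 and 69.5 in DN1, 56.5 and 48.6 in DN2a, 17.8 and 52.2 in DN2b, and 42.3, 66.9 and 44.7 in IgG, with overlap between IgG and Delta1 (-0.395 ± 11.5 points). At equal lengths IgG was 36.9 points higher there (adjusted p 0.00776). A second DHS 0.901 kb into the first part of the gene stood at 84.6, 78.1 and 70.5 in IgG, with none in LSK and 33.6 and 27.8 in 1 DN1 and 1 DN2a library. It was 67.5 ± 8.77 points higher in IgG than in Delta1 (adjusted p 0.00027, and 4.22e-07 at equal lengths) and 77.7 ± 10.1 points higher than in LSK (adjusted p 0.000491, and 1.57e-06 at equal lengths). The promoter call of Itgam against LSK (49.9 ± 12.6 points, adjusted p 0.00935) came from this second DHS, since a window of 500 bp gave 23.5 points and an adjusted p of 0.178.

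Upstream of Itgam the groups again held different sites. IgG stood at 83.5, 79.1 and 96.5 at a DHS 11.6 kb before the start, where 1 library each of LSK, DN1 and DN2b reached 28.6, 35.7 and 51 (71.9 ± 12.8 points against Delta1, adjusted p 0.0017, and 3.2e-07 at equal lengths). Delta1 libraries were open 3.84 kb before the start, at 67.7 and 76.2 in DN1, 79.3 and 81.5 in DN2a, and 82.9 and 91 in DN2b, with 31.6 in 1 LSK library and none in IgG (-79.8 ± 7.35 points in IgG against Delta1, adjusted p 3.03e-05, and 0.000578 at equal lengths). Sequences are shown for this pair and for the DHS 0.901 kb downstream, since they moved in opposite directions around 1 start. They are from the plus strand of RefSeq GRCm38.p6, and capitals mark RUNX motifs (TGTGGT, or ACCACA when read on the other strand) and, 3.84 kb upstream, an AP-1 motif.
Itgam 11.6 kb upstream, open in IgG, chr7:128050897-128051086: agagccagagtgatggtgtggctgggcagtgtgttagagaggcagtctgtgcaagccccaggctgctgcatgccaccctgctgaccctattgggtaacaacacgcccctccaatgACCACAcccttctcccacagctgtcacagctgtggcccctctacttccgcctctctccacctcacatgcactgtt
Itgam 3.84 kb upstream, open in Delta1 libraries, chr7:128058657-128058946: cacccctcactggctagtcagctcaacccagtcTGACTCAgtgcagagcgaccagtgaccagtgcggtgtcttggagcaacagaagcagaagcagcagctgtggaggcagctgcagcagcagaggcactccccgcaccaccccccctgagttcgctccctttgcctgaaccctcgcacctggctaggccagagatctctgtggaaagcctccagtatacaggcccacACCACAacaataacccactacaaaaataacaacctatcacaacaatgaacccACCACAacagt
Itgam 0.901 kb downstream, open in IgG, chr7:128063437-128063646: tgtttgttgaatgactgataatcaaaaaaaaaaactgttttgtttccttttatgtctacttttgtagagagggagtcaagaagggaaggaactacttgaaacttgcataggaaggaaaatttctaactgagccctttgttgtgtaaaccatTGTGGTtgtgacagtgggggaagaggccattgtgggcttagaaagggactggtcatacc
RUNX letters were found in sites of either direction and in 35.9% of all distal DHSs, so they do not separate the sites shown.

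DHSs 43.2 and 37 kb upstream of Itgam were open in IgG alone, at 75.1, 56.9 and 62.8 and at 75.1, 76.3 and 52.8. Entry into DN2 was marked by loss at an intronic DHS 3.14 kb downstream, which stood at 54.9, 57.2 and 59.8 in LSK, 65.5 and 73.7 in DN1, 32.6 in 1 DN2a library and 0 in the other 3 DN2 libraries, and 68.7, 60.6 and 70.5 in IgG. DN2 was 61.4 ± 8.4 points below DN1 (difference -61.4, adjusted p 0.000998), a call lost at equal lengths (-22.5 points, adjusted p 0.199). A DHS 13.7 kb upstream fell between the same stages, from 80.9 and 77.8 in DN1 to 23.1, 32.6, 0 and 30.6 in DN2 (-57.8 ± 13.5 points, adjusted p 0.0181, and 0.0129 at equal lengths). Of the 26 Itgam DHSs tested, 5 were lower and 1 higher in DN2 than in DN1 (9.41% and 5.58% of all DHSs), and at equal lengths 4 were lower and 1 higher (7.71% and 8.73% of all). The locus was 30 percentage points higher in IgG than in Delta1 at equal lengths (adjusted p 0.000511) but not called as deposited (-14.6, adjusted p 0.115). It was called lower in IgG with a flank of 100 kb (-23 points, adjusted p 0.00625) and, on the deposited lists, without DN1 replicate 2 (-19.7, adjusted p 0.0268) or DN2b replicate 1 (-18.2, adjusted p 0.0187), so its direction depends on list length.

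ITGAX (CD11c) is the integrin alpha chain used to recognise dendritic cells, and the gene follows Itgam at chr7:128129547-128150657 (plus strand) with 24 window DHSs. Its promoter stood at 10.2, 22.4 and 24.1 in LSK, 73.4 and 63.2 in DN1, 32.6 and 46.5 in DN2a, 12.9 and 27.2 in DN2b, and 0 in the 3 IgG libraries. DN1 was above every other library. It exceeded LSK by 49.4 ± 7.93 points (adjusted p 0.00504, and 0.00783 at equal lengths) and DN2 by 38.5 ± 7.52 points (DN2 minus DN1 -38.5, adjusted p 0.0268, and 0.0202 at equal lengths). The DN2 call was lost without DN1 replicate 1 (adjusted p 0.221), DN1 replicate 2 (0.0681), DN2a replicate 1 (0.0698) or any 1 IgG library (0.0592 to 0.0648). IgG was below Delta1 as deposited (-42.6 ± 6.14 points, adjusted p 0.000245) and not at equal lengths (-8.48, adjusted p 0.065).

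SIGLEC-H, the product of Siglech, is a surface lectin of plasmacytoid dendritic cells, the interferon-producing type. The gene lies at chr7:55768178-55778925 (plus strand), and only 6 DHSs lay in its window. No LSK or IgG library had a promoter peak, whereas DN1 stood at 86.3 and 86.9, DN2a at 54.9 and 56.2 and DN2b at 8.85 and 30.6. The DN1 libraries were thus highest, and the 4 DN2 libraries lay below both. DN1 exceeded LSK by 86.6 ± 7.33 points (adjusted p 0.00015, and 9.18e-05 at equal lengths), DN2 was 49 ± 6.95 points lower than DN1 (difference -49, adjusted p 0.00452, and 0.0004 at equal lengths), and IgG was below Delta1 (-53.9 ± 5.68 points, adjusted p 3.96e-05, and 0.00143 at equal lengths). A DHS 16.6 kb downstream of the start was open in all 12 libraries, highest in DN1 at 95.6 and 93.2 and lowest in 2 of the 3 IgG libraries at 32.3 and 20.

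The promoters of Siglech and Itgax, which were both called higher in DN1 than in LSK, are shown up to the base before each start (121 and 110 bases, plus strand, RefSeq GRCm38.p6). Capitals mark a RUNX motif in the first and an AP-1 motif in the second.
Siglech promoter, chr7:55768057-55768177: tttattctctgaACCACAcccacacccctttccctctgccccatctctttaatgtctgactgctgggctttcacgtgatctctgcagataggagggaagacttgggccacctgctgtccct
Itgax promoter, chr7:128129437-128129546: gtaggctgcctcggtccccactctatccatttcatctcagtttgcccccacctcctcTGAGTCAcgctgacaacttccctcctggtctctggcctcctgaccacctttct
In the 300 bases around the centre 15.3% of all promoter DHSs held the RUNX letters and 5.61% the AP-1 letters. Over the 12 libraries the percentiles of this pair gave a Pearson r of 0.931, a description over libraries that share list length and group, and none of the 12681 promoters compared with Itgax had a higher r, although Aqp3 reached 0.931 too. For Siglech the closest was Gm14085 (r 0.988 over 12 libraries), at 67.7 and 63.2 in DN1, 39.3 and 35.1 in DN2a, 0 and 11.6 in DN2b and 0 in LSK and IgG. The next was Sh2d1b1 (r 0.966).

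Of the 19 Itgax DHSs tested, 1 was higher and 10 were lower in IgG than in Delta1 (7.77% and 38.4% of all DHSs). At equal lengths 2 were higher and 5 lower (21.9% and 25.3% of all). In an intron of Itgad, the next integrin gene, a DHS 48.9 kb downstream of the Itgax start was open in the 6 Delta1 libraries alone, at 86.3 and 80 in DN1, 77 and 65.3 in DN2a, and 76 and 82.9 in DN2b. DN1 exceeded LSK by 83.2 ± 5.91 points (adjusted p 2.34e-05, and 0.000116 at equal lengths), and IgG was below Delta1 (-77.9 ± 4.58 points, adjusted p 2e-06, and 1.2e-05 at equal lengths). It is printed as the strongest Delta1-specific site of this window (plus strand, RefSeq GRCm38.p6), with its RUNX motif in capitals.
Itgad intron, 48.9 kb from the Itgax start, chr7:128178377-128178566: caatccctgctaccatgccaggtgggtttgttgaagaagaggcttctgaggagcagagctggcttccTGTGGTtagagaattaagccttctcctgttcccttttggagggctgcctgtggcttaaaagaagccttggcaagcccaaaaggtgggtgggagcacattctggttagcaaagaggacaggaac
A DHS 50.7 kb downstream stood at 89.4 and 93.5 in DN1, 66.5 to 81 in DN2, 33.1, 60.5 and 42 in LSK, and 0, 0 and 10.7 in IgG. A DHS 9 kb downstream, in an Itgax intron, was open in DN1 alone, at 43.6 and 45.2, and had no peak in any library at equal lengths. By contrast a DHS 4.3 kb downstream, in a UTR of Itgax, was open in all 12 libraries, at 86.6, 81.7 and 84.5 in IgG, 85.4 and 86.4 in DN1, 50.8 to 81.5 in DN2, and 63.5, 63.6 and 54.6 in LSK. There IgG was 23.7 ± 5.61 points above LSK (adjusted p 0.0137, 0.000968 at equal lengths, and 0.0536 without LSK replicate 3). On the deposited lists IgG therefore had an open site inside the gene while its promoter had no peak. At equal lengths the promoter had a peak in 3 libraries only, and none in LSK or DN2b either. In Itgam, an intronic DHS within the Itgax window, 40.2 kb before the Itgax start, was open in IgG at 34.9, 52.8 and 69.3 and in no Delta1 library.

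Of the 19 Itgax DHSs tested, 9 were higher and 0 lower in DN1 than in LSK (13.8% and 2.29% of all DHSs), and 5 of these 9 were also called at equal lengths (8.71% higher and 6.88% lower over all). The percent of Itgax window DHSs open was 62.5 and 50 in DN1, 41.7 to 54.2 in DN2, 16.7 to 29.2 in LSK, and 8.33, 8.33 and 16.7 in IgG. IgG was lower than Delta1 (-38.2 ± 8.33 percentage points, adjusted p 0.000312, and 0.00187 at equal lengths). Itgam and Itgax, although neighbours sharing 16 DHSs, thus differed at equal lengths in the direction of the IgG difference, 30 points higher for Itgam and 29.6 points lower for Itgax, although this difference between the genes was not itself tested.

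Lyz2 encodes the lysozyme of macrophages and granulocytes, an enzyme that breaks bacterial walls. It lies on the minus strand at chr10:117277331-117282321, with 12 window DHSs. The promoter was open in all 12 libraries, at 36, 58.9 and 62.8 in LSK, 79.8 and 51.5 in DN1, 62.3 and 30.2 in DN2a, 10.8 and 32.2 in DN2b, and 77.7, 73.1 and 58.2 in IgG. IgG and Delta1 overlapped as deposited (25.2 ± 10.7 points, adjusted p 0.0629), and the difference was called at equal lengths (56.3 points, adjusted p 0.00164). A DHS 19.6 kb upstream, between genes beyond Lyz1, had tighter groups. It stood at 92.5, 98 and 91.4 in IgG, 50.8, 55.4 and 59.8 in LSK, 20.5 and 30.5 in DN1, and 0 in all 4 DN2 libraries, so that the groups did not overlap. IgG exceeded LSK by 38.6 ± 5.16 points (adjusted p 0.000572, and 1.93e-06 at equal lengths) and Delta1 by 85.5 ± 4.47 points (adjusted p 1.1e-06, and 1.19e-07 at equal lengths). DN1 was below LSK (-29.9 ± 5.77 points, adjusted p 0.00652, 0.0101 at equal lengths, and 0.0555 without DN1 replicate 1). DN2 was below DN1 as deposited (-25.5 ± 5.47 points, adjusted p 0.012), but at equal lengths DN1 had no peak there either. The site is printed because its groups did not overlap on the deposited lists. It is shown in the 300 bases around its centre on the minus strand (RefSeq GRCm38.p6), with a PU.1 motif (GAGGAAGT) and an RBPJ motif (TGGGAA, here TTCCCA) in capitals.
Lyz2 19.6 kb upstream, chr10:117301742-117302041: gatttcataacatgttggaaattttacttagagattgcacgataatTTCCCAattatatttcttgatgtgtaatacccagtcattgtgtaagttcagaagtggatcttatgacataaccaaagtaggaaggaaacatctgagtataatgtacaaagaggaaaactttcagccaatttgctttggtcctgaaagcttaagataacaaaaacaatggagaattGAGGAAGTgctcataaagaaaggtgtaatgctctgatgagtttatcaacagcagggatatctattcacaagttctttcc
PU.1 is a factor of myeloid and early lymphoid cells and RBPJ the DNA-binding partner of Notch, and their letters occur in 7.97% and 25.3% of all distal DHSs.

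A DHS 6.08 kb upstream of Lyz2, in a UTR of its paralogue Lyz1, was open in IgG alone, at 73.4, 66.9 and 71.6 (70.6 ± 4.15 points, adjusted p 2e-06, and 1.19e-07 at equal lengths). Lyz1 and Lyz2 are similar in sequence, and how reads that match both were placed is not given in the sources used here. At 48.4 kb upstream a DHS of 21.2, 37.2 and 42 in LSK was absent from IgG (-33.5 ± 8.82 points, adjusted p 0.0231, and 0.0579 to 0.081 without LSK replicate 2 or 3 or any 1 IgG library), and 13.2 kb beyond the start a DHS was open in DN1 alone, at 29.4 and 35.7. Neither was found at equal lengths. Of 9 Lyz2 DHSs tested, 4 were higher and 2 lower in IgG than in Delta1 (7.77% and 38.4% of all DHSs). All 4 higher calls and 0 of the lower calls were made at equal lengths (21.9% and 25.3% of all). The locus then held 6 DHSs and was 72.2 ± 6.61 percentage points higher in IgG (adjusted p 3.31e-05), against 8.33 points as deposited (adjusted p 0.351). A flank of 100 kb on the deposited lists gave -9.26 points, which was not called (adjusted p 0.25). On the deposited lists the locus was called higher in IgG without DN2b replicate 2 (12.5 points, adjusted p 0.0447).

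**Figure D4:**
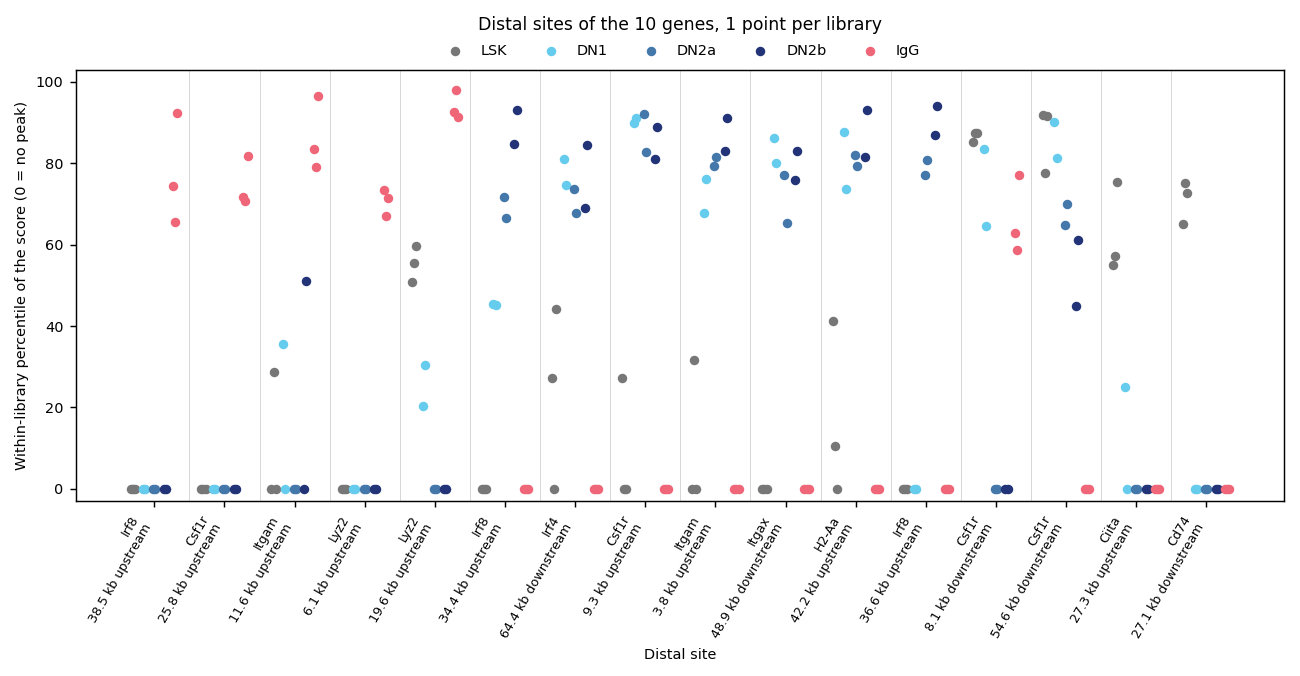
Within-library percentile (y axis, 0 where no peak was called) of 16 distal DHSs (x axis), 1 point per library, coloured by group. The Lyz2 site 19.6 kb upstream steps down from IgG (91.4 to 98) through LSK and DN1 to 0 in DN2, and the Csf1r site 8.08 kb downstream is at 0 in DN2 alone.

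CIITA is the coactivator that switches on MHC class II genes. Its gene lies at chr16:10480059-10528418 (plus strand), with 33 window DHSs. None lay within 1 kb of the start of the gene record. Over all annotated starts a peak was found at 16.2 in LSK replicate 2, 50.6 and 30.5 in DN1 and 15.8 in DN2b replicate 2, and in no DN2a or IgG library. The distal DHS with the highest median, 85.7 kb downstream in an intron of Clec16a, was open in all 12 libraries and stood at 15, 17 and 21.2 in IgG, below every other library (62, 62.1 and 77.9 in LSK, 72.8 to 85.9 in Delta1). The IgG difference from Delta1 was -61.8 ± 4.92 points (adjusted p 1.18e-05, and 0.000197 at equal lengths). A DHS 27.3 kb upstream stood at 54.9, 57.2 and 75.5 in LSK, 24.9 in 1 DN1 library and 0 in the other 8, so it had a weaker peak or none both with and without Notch (-62.5 ± 7.94 points in IgG and -50.1 ± 8.88 points in DN1 against LSK, adjusted p 0.000418 and 0.00404, and 0.00153 and 0.00586 at equal lengths). In the upper 50% of each list by score neither was called (-25.1 points, adjusted p 0.0731 in IgG and 0.126 in DN1). By presence alone the DN1 call was lost (adjusted p 0.337). Of 21 Ciita DHSs tested, 0 were higher and 14 lower in IgG than in Delta1 (7.77% and 38.4% of all DHSs), 3 of them also at equal lengths (21.9% and 25.3% of all). Further named DHSs were a DHS 18.7 kb upstream, at 71.6 and 56.9 in DN1 and 0 to 41.4 in DN2 (-51.7 ± 11.2 points, adjusted p 0.0124, 0.00493 at equal lengths, and 0.111 without DN1 replicate 1), a DHS 90.1 kb downstream, at 35.1 to 78.5 in DN2 and 0 in DN1 (56.2 ± 8.23 points, adjusted p 0.0015, and 0.177 at equal lengths), and a DHS 92 kb downstream, at 55.2 and 40.7 in DN1 and 0 in LSK (adjusted p 0.018, 0.138 without DN1 replicate 1, and no peak in any library at equal lengths). The promoters of the neighbours Dexi and Clec16a were open in all 12 libraries, with medians of 97.8 and 93.9.

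H2-Aa encodes the alpha chain of the MHC class II molecule I-A. It lies on the minus strand at chr17:34282744-34287823, within the class II gene cluster, and its window held 23 DHSs. The promoter stood at 81.7, 76 and 89.3 in LSK, 79.2 and 65.9 in DN1, 77 and 57.9 in DN2a, 67.9 and 80.6 in DN2b, and 37.5, 11.4 and 0 in IgG. All IgG libraries lay below all others. The IgG difference was -66.1 ± 10.6 points from LSK (adjusted p 0.000912, and 0.00151 at equal lengths) and -55.1 ± 9.2 from Delta1 (adjusted p 0.000582, and 0.0502 at equal lengths). A DHS 42.2 kb upstream, in an intron of H2-Eb2, was higher in each Delta1 library than in LSK. It stood at 41.2, 10.5 and 0 in LSK, 87.6 and 73.7 in DN1, 82 and 79.2 in DN2a and 81.7 and 93 in DN2b, and was absent from IgG. DN1 exceeded LSK by 63.4 ± 10.9 points (adjusted p 0.00345, and 0.000452 at equal lengths), and IgG was below Delta1 (-82.9 ± 8.46 points, adjusted p 5.86e-05, and 6.57e-06 at equal lengths). Both are printed on the minus strand, the promoter up to the base before the start (183 bases, RefSeq GRCm38.p6), with an RBPJ motif in capitals in the promoter and a RUNX motif in the distal site.
H2-Aa promoter, chr17:34287824-34288006: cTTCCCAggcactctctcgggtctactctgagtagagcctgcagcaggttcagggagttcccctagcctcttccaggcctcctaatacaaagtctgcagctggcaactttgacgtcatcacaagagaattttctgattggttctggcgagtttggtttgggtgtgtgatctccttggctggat
H2-Aa 42.2 kb upstream, chr17:34329917-34330126: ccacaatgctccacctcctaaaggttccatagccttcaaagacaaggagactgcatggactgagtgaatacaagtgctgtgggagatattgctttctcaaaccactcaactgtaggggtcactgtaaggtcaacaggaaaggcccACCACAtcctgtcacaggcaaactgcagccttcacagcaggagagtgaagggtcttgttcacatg
The RBPJ letters occur in 21.4% of all promoter DHSs.

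Around H2-Aa the class II cluster was open in every group, and 8 of its 23 window DHSs had a peak in all 12 libraries, among them promoter DHSs of H2-Eb1, H2-Ab1 and H2-Ob. Over all 170207 DHSs, 13068 had a peak in all 12. H2-Ab1, which encodes the beta chain that pairs with H2-Aa, stood between 80 and 95.4 in every library and was not called in any comparison. A DHS 5.93 kb upstream of H2-Aa stood at 93.3, 87.9 and 94.4 in LSK, 71.1 to 92 in Delta1, and 23.7, 50.5 and 42.4 in IgG (-53 ± 6.18 points against LSK, adjusted p 0.000246, and 0.00191 at equal lengths). Another in an intron of H2-Ab1, 26.1 kb downstream, stood at 34.9, 26.2 and 0 in IgG and at 85.9, 79.2 and 87.8 in LSK (-63.9 ± 8.26 points, adjusted p 0.000467, and 0.00128 at equal lengths). A DHS 7.19 kb upstream was open in the 4 DN2 libraries alone, at 43.5, 52.5, 57.5 and 70 (55.9 ± 5.92 points above DN1, adjusted p 0.000244, and 0.411 at equal lengths). Against LSK, 9 of 18 tested DHSs were lower in IgG and 0 higher (17% and 4.86% of all DHSs), 5 of these 9 also at equal lengths (15.6% and 12.9% of all). DN1 was lower than LSK at 1 DHS as deposited, 8.41 kb upstream (-19.5 ± 5.61 points, adjusted p 0.0446, 0.0065 at equal lengths, lost in 8 of the 12 fits that left out a library), and at 6 at equal lengths. DN1 was higher at 1 with both list lengths, the DHS 42.2 kb upstream. Over all DHSs 2.29% were lower and 13.8% higher in DN1 as deposited, and 6.88% and 8.71% at equal lengths. In the pattern over libraries the promoter most like that of H2-Aa was Polr2k (r 0.989 over 12 libraries), which encodes a subunit of RNA polymerases.

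CD74, the invariant chain, holds the peptide groove of class II molecules until they reach the endosome. Its gene lies on chromosome 18, from 60803848 to 60812652 (plus strand), with 33 window DHSs. The promoter stood at 83, 78.5 and 85.8 in LSK, 63.2 and 53.4 in DN1, 0 and 40 in DN2a, 66.8 and 65.9 in DN2b, and 32.3, 0 and 37.6 in IgG, so LSK lay above all others. IgG was 59.1 ± 12.2 points below LSK (difference -59.1, adjusted p 0.00336, and 0.00273 at equal lengths), and DN1 was lower than LSK at equal lengths (-68.9 points, adjusted p 0.00282) but not as deposited (-24.1, adjusted p 0.5). In the gene itself a DHS 3.61 kb downstream was open in all 12 libraries, between 72.6 and 95, as was the one 2.05 kb downstream, between 52.6 and 90.2. A window of 2.5 kb, which takes in the latter, gave an IgG difference from LSK of -2.34 points (adjusted p 0.674). The DHS 3.61 kb downstream was 13.5 ± 3.85 points lower in IgG than in LSK (difference -13.5, adjusted p 0.033, and 0.143 at equal lengths), a smaller difference than before the start.

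Among distal DHSs of Cd74, the one with the highest median lay 29.3 kb upstream in a UTR of the ribosomal protein gene Rps14 and stood at 61.4, 52.8 and 78.8 in IgG against 92.2 to 97.9 in LSK (-30.7 ± 5.41 points, adjusted p 0.00287, and 0.00346 at equal lengths). At 27.1 kb downstream, in an intron of Tcof1, a DHS was open in the 3 LSK libraries alone, at 65, 75.1 and 72.7 (-70.9 ± 5.65 points in DN1 and -70.9 ± 5.05 in IgG, adjusted p 4.01e-05 and 1.36e-05, and 8.71e-05 and 1.21e-05 at equal lengths). Another 40.7 kb upstream was open in IgG alone, at 68.7, 8.88 and 64.2, and 1 at 44.6 kb upstream in DN2b alone, at 70.9 and 86.7. A DHS 55.4 kb downstream stood at 39.3 to 81.5 in Delta1 and 12.2, 0 and 0 in IgG (-54.4 ± 12 points, adjusted p 0.00542, and 0.206 at equal lengths). Cd74 and Ciita were the windows with a DHS confined to the 3 LSK libraries, and the Ciita one, 97.8 kb downstream, stood at 24.2, 49.3 and 37.2.

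**Figure D5:**
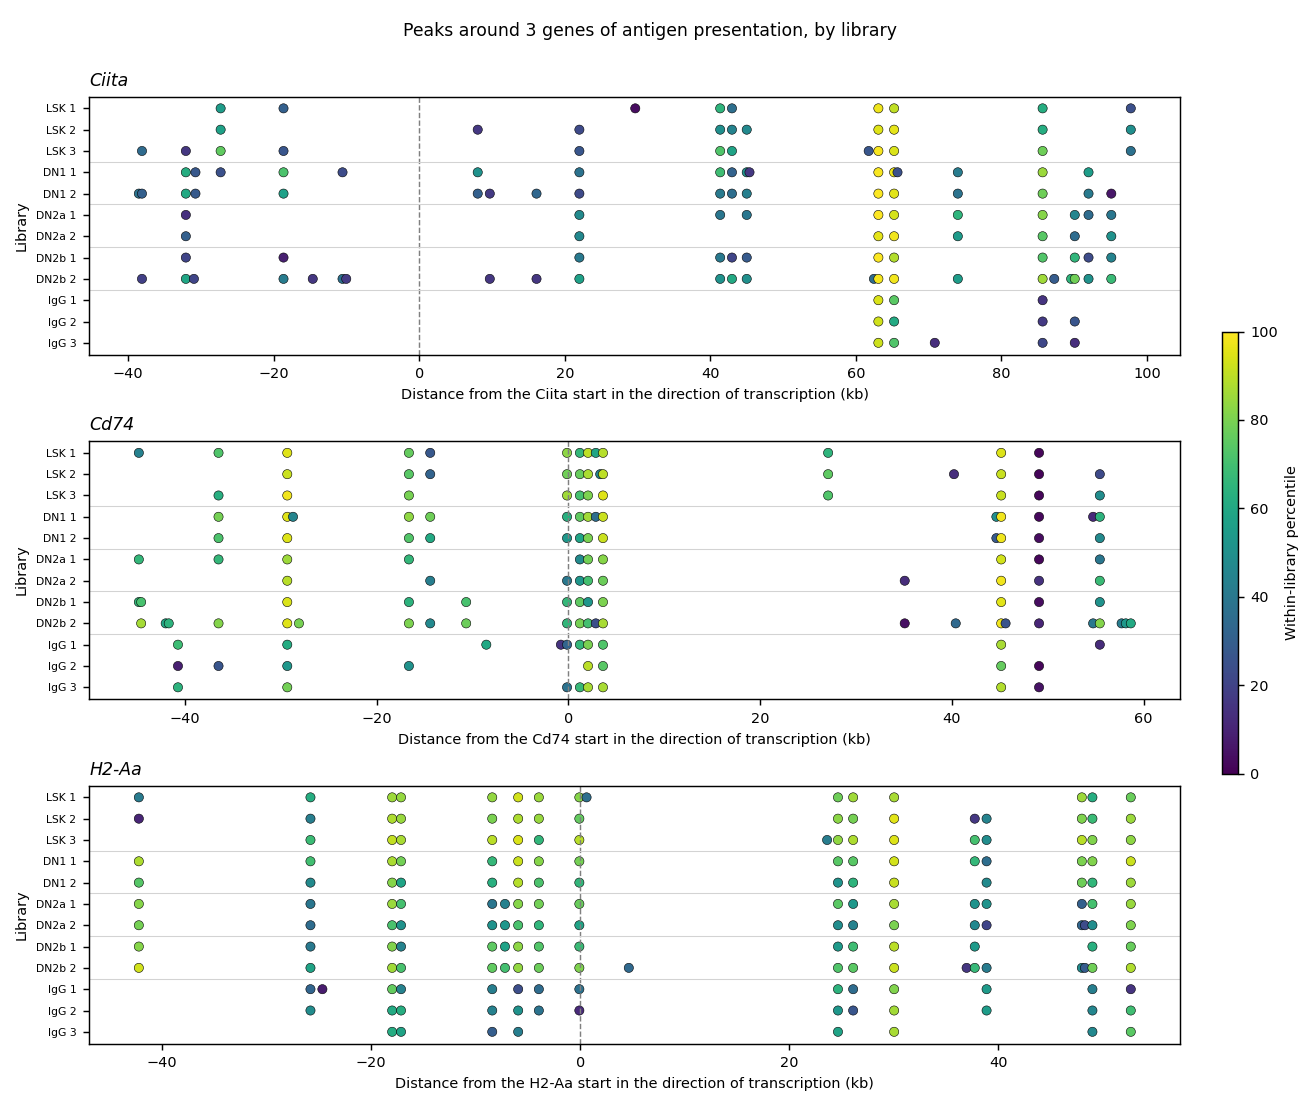
Peaks around Ciita, Cd74 and H2-Aa in each library (1 line per library), by distance from the gene start in the direction of transcription (x axis, kb) and coloured by within-library percentile. The H2-Aa promoter column at 0 is dark or empty in IgG (37.5, 11.4 and 0), and no column stands at the Ciita start.

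Peaks confined to 1 condition were counted over all 10 windows on the deposited lists. DHSs open in all 3 IgG libraries and in no other numbered 6 of 228 (2.63%, against 1.89% of all DHSs) and lay at Irf8, Csf1r, Itgam (2), Lyz2 and Cd74. Those shared by all 6 Delta1 libraries but absent from LSK and IgG numbered 5 (2.19%, against 1.9%), namely the Irf8 DHS 34.4 kb upstream, the Siglech promoter, and 3 DHSs downstream of Itgax. DHSs of the 4 DN2 libraries alone numbered 5 (2.19%, against 0.758%) and lay at Irf8 (2), Csf1r, Itgam and Itgax (1 shared), and H2-Aa. DHSs of both DN1 libraries alone numbered 7 (3.07%, against 1.77%). Only 2 were open in all LSK and DN1 libraries and in no DN2 library (0.877%, against 0.757%), the Csf1r intronic DHS and the Lyz2 DHS 19.6 kb upstream. Those open in every library except IgG numbered 3 (1.32%, against 3.17%). These shares rest on few sites and are descriptions.

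Per locus, the percent of window DHSs that were open was called lower in IgG than in Delta1 for 5 of 10 genes (Irf4, Itgax, Ciita, H2-Aa and Siglech) and higher for 0, the H2-Aa call being lost without IgG replicate 3 (adjusted p 0.0792), where 69.2% of all loci were called (0.583% higher and 68.6% lower). Without DN2b replicate 1 the called loci numbered 8. At equal lengths Csf1r, Itgam and Lyz2 were higher and Irf4 and Itgax lower (37.7% of all called, 17% higher and 20.6% lower). Against LSK 0 loci were called in IgG as deposited (9.88% of all), and Irf8 (18.8 percentage points), Itgam (33.3) and Lyz2 (50) were higher at equal lengths (23.9% of all). The window of Siglech held too few DHSs for this test at equal lengths. Without either DN2b library 1 locus was called against LSK as deposited. Between DN1 and LSK 0 loci were called (2.77% of all), or 3 without DN1 replicate 2 or either DN2b library, and Itgax was higher at equal lengths, by 37 points (4.33% of all). Between DN2 and DN1 0 loci were called with either list length (0.411% and 3.37% of all).

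Other genes of these lineages were counted at their promoters from lists of related factors, receptors, phagocyte genes and class II genes. Among 15 tested transcription factors, 3 were higher and 5 lower in IgG than in Delta1. The higher ones were Spi1, which encodes PU.1, Cebpa, which drives granulocyte and monocyte fate, and Nfil3. Cebpa stood at 94.7, 96.5 and 95.1 in IgG, above all other libraries (67.7 to 89.8, 19.1 ± 3.45 points above Delta1, adjusted p 0.000928). The lower ones were Bach2, Mitf, Maf, Id2 and Batf3, a factor of cross-presenting dendritic cells, which was open in the 6 Delta1 libraries alone, at 55.2 to 80.6. At equal lengths 5 of 14 tested were higher and 3 lower. Over all promoters 2.86% were higher and 56.3% lower as deposited, and 13.1% and 22% at equal lengths, which is the background for each list here. Among 5 tested receptors, Csf3r, Csf2rb and Csf2ra, which bind granulocyte and granulocyte-macrophage factors, were higher in IgG, and Flt3 and Ccr7 were lower, with the same calls at equal lengths. Ccr7, the homing receptor of T cells and mature dendritic cells, stood at 76.2 to 94 in Delta1 libraries and 0 elsewhere. Flt3, the receptor that dendritic cell precursors depend on, stood at 29.5, 0 and 44.7 in IgG and at 79 to 94 elsewhere.

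Of 13 tested phagocyte and sensing genes, 5 were higher in IgG than in Delta1 (Sirpa, Tlr4, Cd68, Adgre1 and Cd14) and 3 lower (Ctss, Bst2 and Tlr9). At equal lengths 7 were higher and 0 lower. Adgre1, the macrophage antigen F4/80, stood at 74.3, 58.8 and 46.9 in IgG, 18.6 in 1 LSK library and 0 in the other 8 (60 ± 6.59 points above Delta1, adjusted p 4.92e-05). Cd68, a lysosomal protein of macrophages, stood at 97.9, 96.9 and 97.7 in IgG, 86.3 to 91.4 in LSK, 89.4 and 83.6 in DN1, and 53.1 to 65 in DN2. From DN1 to DN2, 5 of these 13 fell and 0 rose (Sirpa, Ctss, Fcgr1, Tlr4 and Cd68), 3 of them also at equal lengths (Fcgr1, Tlr4 and Cd68), where 1.12% of all promoters were lower and 0.746% higher as deposited. Among 7 tested class II genes, H2-DMb1 was higher in IgG than in Delta1 and H2-Oa, H2-DMb2, H2-Ob and H2-Eb1 were lower, and at equal lengths 2 were higher and 1 lower. H2-Ob, an inhibitor of peptide loading, stood at 85.3, 80.6 and 89.3 in LSK, 48.6 to 80.9 in Delta1, and 42.3, 45.9 and 46.9 in IgG. Its IgG difference from Delta1 was -24.9 points as deposited. At equal lengths it was 5.76 points and not called (adjusted p 0.584), so its direction depends on list length.

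Motif letters were searched on both strands in the 300 bases around the centre of each DHS. Of 194 distal window DHSs, 11.3% held the PU.1 letters (GAGGAAGT), against 7.97% of all 141937 distal DHSs, 12.9% the C/EBP letters (against 14.8%), 41.2% the RUNX letters (against 35.9%), 12.9% the AP-1 letters (against 13.4%) and 30.4% the RBPJ letters (against 25.3%). The composite of GGAA and GAAA, bound by ETS factors with an IRF partner, was in 3.61% (against 3.84%), and a repeat of GAAA, bound by IRF factors, also in 3.61% (against 5.74%). In both of the latter the cores are spaced by 2 bases. Among the 18 distal window DHSs that were higher in IgG than in Delta1, 6 held the PU.1 letters (33.3%, against 10.6% of all 8313 such DHSs), and 7 each the C/EBP (38.9%, against 43.6%), AP-1 (38.9%, against 24.6%), RUNX (38.9%, against 31.3%) and RBPJ letters (38.9%, against 26.3%). Among the 63 that were lower, 8 held PU.1 (12.7%, against 9.44%), 5 C/EBP (7.94%, against 10.8%), 10 AP-1 (15.9%, against 11.8%), 32 RUNX (50.8%, against 46.1%) and 18 RBPJ letters (28.6%, against 24.9%). The composite of GGAA and GAAA was in 1 of the 18 (5.56%, against 5.47%) and 0 of the 63 (against 3.58%). The repeat of GAAA was in 0 of the 18 (against 4.68%) and 0 of the 63 (against 6.1%). The shares with C/EBP, AP-1, PU.1 and RBPJ letters were larger in the higher than in the lower DHSs, both in the windows and over all DHSs, and those with RUNX letters were smaller. No difference between these shares was tested, and they describe sequence only.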

How the data were processed

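DNase-seq libraries of 12 mouse samples were analysed from the authors' peak lists. Per the methods, the authors mapped the read pairs with BWA 0.7.12 (genome mm10), and hotspot2 gave 1 peak list per library, at an FDR of 0.05. The processing notes also name SAMtools 1.2. The score in the deposited lists runs from 1 to 150 in whole steps and its meaning is not stated, which is why only its percentile was taken, within each library, with 0 where no peak was called. The lists hold no reads, so the depth is unknown and the study's test on read profiles could not be run.

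Peaks on autosomes and X were merged into consensus DHSs, and genes came from GENCODE release M21. Percentiles of sites (in at least 2 libraries) and promoters (best peak within 1 kb), and the percent of open DHSs per locus (at least 5 DHSs), were fitted over all features and all 12 libraries with limma 3.58.1 (intensity trend, R 4.3.3) and Benjamini-Hochberg adjustment, after a test on simulated data. Percentiles with many zeros are not normal, so adjusted p near 0.05 is approximate. DN2 is the mean of the DN2a and DN2b groups, and Delta1 the mean of DN1, DN2a and DN2b.

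The 10 genes, the lists and the motifs were chosen with earlier results of these data known. The rule for naming sites took own-promoter DHSs, the distal DHS with the highest median, and the largest called difference per comparison and direction, but not every such site is described. Sites beyond these were chosen after their values were seen or belong to a counted pattern. Of the genes listed for comparison, 2 were not found in the annotation under their symbol. Likeness was the Pearson r over 12 percentiles with promoters over 1 Mb away. Replicate numbers follow accession order and only name a library. All 12 lists differ in length. Alternatives were equal list lengths, the upper 50% of each list by score, presence alone, other filters, merging rules, flanks and promoter windows, every annotated start, limma without the trend, and each library left out in turn.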

Additional observations from a re-analysis of the deposited data

How the results depend on the processing

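No site called in both the deposited lists and at equal lengths changed direction, but counts moved with list length. For IgG against Delta1, window DHSs higher numbered 29 at equal lengths and 11 with a flank of 20 kb (19 as reported), and those lower 29 at equal lengths, 41 in the upper 50% of each list, 50 by presence, 39 at 20 kb and 125 at 100 kb (76 as reported). The promoter count was 5 with every annotated start and the locus count 9 at 100 kb. For IgG against LSK, higher DHSs numbered 8 by presence and 6 at 20 kb, and lower ones 15 at equal lengths, 11 by presence, 20 at 20 kb and 52 at 100 kb. Promoters numbered 5 with every start and 1 by presence, and loci 3 at equal lengths and 2 in the upper 50%. For DN1 against LSK, higher DHSs numbered 14 at equal lengths, 18 by presence, 18 in the upper 50% and 17 at 20 kb, and lower ones 13 at equal lengths and 3 by presence. Promoters numbered 4 in the upper 50%, 4 with every start and 1 by presence, and loci 1 at equal lengths and 1 in the upper 50%. For DN2 against DN1, higher DHSs numbered 10 at equal lengths, 7 in the upper 50%, 13 when found in at least 3 libraries and 9 at 20 kb, and lower ones 14 at equal lengths, 11 by presence and 39 at 100 kb. Promoters numbered 4 with every start and 0 by presence. A narrower or wider flank holds fewer or more DHSs, and presence and the upper 50% hold less information per site. The cause of the other shifts was not tested.

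Leaving out 1 library at a time gave, for IgG against Delta1, 17 to 20 higher and 61 to 81 lower DHSs, 3 to 5 promoters and 4 to 8 loci. For IgG against LSK it gave 11 to 14, 22 to 31, 3 to 4 and 0 to 1, for DN1 against LSK 16 to 34, 3 to 6, 2 to 2 and 0 to 3, and for DN2 against DN1 12 to 24, 9 to 26, 1 to 2 and 0 to 0. Without DN1 replicate 1, DN1 against LSK had 16 higher and 3 lower DHSs and DN2 against DN1 9 lower. Without DN2b replicate 2, DN2 against DN1 had 12 higher. Without DN2a replicate 1, 5 promoters were called for IgG against Delta1, and without DN2b replicate 1, 8 loci were. Locus counts also rose without DN1 replicate 2 or either DN2b library (3 each for DN1 against LSK).

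Some differences that were not called as deposited reversed. At equal lengths IgG exceeded Delta1 at the Irf4 promoter (27.9 points) and the Csf1r (15) and Itgam (30) loci, and Itgam was 8.82 higher in the upper 50%, while on the deposited lists a flank of 100 kb called both loci lower in IgG (Csf1r -19.2, adjusted p 0.0239; Itgam -23, adjusted p 0.00625), as did leaving out DN1 replicate 2 (-19.7) or DN2b replicate 1 (-18.2) for Itgam. A promoter window of 500 bp gave -0.395 for Itgam. The IgG difference from LSK was -11.1 (20 kb) and -4.17 (100 kb) for the Irf8 locus, -1.28 and -0.629 for Itgam and -6.17 (100 kb) for Lyz2, and from Delta1 it was -9.26 (100 kb) for Lyz2. The unknown depth limits what an absent peak shows, most of all in the short IgG lists. No paired analysis was possible because the labels give no replicate numbers shared between groups.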
